A study of Mus musculus with 12 samples.

Results

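Sorted crypt base cells of the mouse large intestine were compared between mice without telomerase and heterozygous mice. The comparison takes in 6 of the 12 RNA sequencing libraries of the series, chosen by their labels: 3 from GFP-sorted large intestinal crypt cells of mTert heterozygous mice and 3 from such cells of mTert null mice of generation 3, called null G3 here. All mice were C57BL/6 and 3 months old, and the labels call the sorted cells stem or progenitor cells. The labels call the libraries biological replicates but do not name the allele that carries GFP or the animals behind each library. A p-value here therefore reflects only how far these libraries scatter, and part of that scatter may be technical. For comparison, 4 libraries of unsorted crypt epithelium were used, 2 from heterozygous mice and 2 from mTert null mice of generation 4 (null G4), also C57BL/6 and 3 months old. The title of the series names the question as whether telomere dysfunction activates YAP1 and inflammation.

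Telomerase adds telomeric repeats to chromosome ends, with Tert as its reverse transcriptase. Without it, telomeres shorten with each generation bred, and tissues that renew constantly, such as the gut lining, are known to be affected most. In the colon, crypt base columnar cells marked by Lgr5 divide and give rise to absorptive colonocytes and to secretory cells. The latter include goblet cells, which make the mucus layer, and enteroendocrine cells, which make gut hormones.

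Tert (ENSMUSG00000021611, chr13:73626911-73649843, + strand, mm10) was at 0.0424, 0.0583 and 0.169 RPKM (reads per kilobase of gene, scaled to library size) in heterozygous replicates 1 to 3. It was at 0, 0.0787 and 0.00131 RPKM in null G3 replicates 1 to 3. All 6 values lay below the minimum of 1 RPKM used for testing, and the groups overlapped, so Tert does not check the genotype labels here. Lgr5, the receptor that marks crypt base stem cells, was at 3.4, 4.24 and 4.72 RPKM in the heterozygous libraries and at 3.73 and 4.74 RPKM in null G3 replicates 2 and 3, but at 0.121 RPKM in null G3 replicate 1. Mki67, a marker of dividing cells, was at 75.2, 63.1 and 65.1 RPKM against 61.6 and 65.2 RPKM in null G3 replicates 2 and 3, and at 4.74 RPKM in replicate 1.

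Null G3 replicate 1 went against its label. It had been singled out beforehand for its small intestinal enterocyte transcripts, so the levels below describe it and test nothing. Sis, the sucrase-isomaltase of small intestinal enterocytes, was at 372 RPKM there and between 1.37 and 2.003 RPKM in the other 5 sorted libraries. All 16 tested genes of small intestinal enterocytes lay above the other 5 libraries in replicate 1. Among them Apoa1, an apolipoprotein, was at 1558 RPKM and Rbp2, a retinol-binding protein, at 614 RPKM, against at most 7.35 and 3.65 RPKM elsewhere. Fabp1, a fatty acid-binding protein that the list did not hold, stood at 1056 RPKM against at most 5.42 RPKM. Of 8734 genes 743 lay above and 6918 below all 5 others in this library, and the median difference from their mean was -0.96 on the log2(RPKM + 1) scale. Across 9156 genes its Pearson correlation with the other sorted libraries was 0.705 to 0.727, where the other 5 correlated at 0.960 to 0.982 with each other (a description over genes, which are not independent). Estimates are therefore given with this library (6 libraries) and without it (5 libraries).

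The sorted libraries also differed in makeup. Mitochondrial ribosomal RNA took 31.7% to 40.1% of the length-weighted RPKM in the heterozygous libraries and 59.6%, 49.9% and 36.6% in null G3 replicates 1 to 3. A level of at least 1 RPKM was reached by 8703 to 9144 genes in each heterozygous library and by 5424, 7721 and 8825 genes in null G3 replicates 1 to 3. Since RPKM divides by all reads, a larger share of mitochondrial RNA lowers every other value, so counts are also given after rescaling. Steps worth 1 read could be seen clearly only in heterozygous replicate 2, so the depth of the other libraries is unknown and no counting interval is given.

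No gene passed an adjusted p of 0.05 in either comparison, using limma on log2(RPKM + 1) with Benjamini-Hochberg adjustment. With all 6 libraries 8734 genes were tested, the smallest adjusted p was 0.48, and 143 genes (1.64%) had an unadjusted p under 0.05, 1 of them (0.0114%) higher in null G3 and 142 (1.63%) lower. Without null G3 replicate 1, 9156 genes were tested, the smallest adjusted p was 0.87, and 245 genes (2.68%) had an unadjusted p under 0.05, 10 (0.109%) higher and 235 (2.57%) lower. The 1 higher gene of the first comparison was Nr1d1, a repressor of the circadian clock. An exact permutation of 3 against 3 or of 2 against 3 libraries cannot give a two-sided p under 0.1. The differences below are therefore described by levels and by whether the libraries overlap, and none was called.

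What null G3 replicates 2 and 3 share was read from the genes that lay outside the heterozygous range in both. As deposited, 74 of 9156 genes (0.808%) lay above all 3 heterozygous libraries in both, and 1370 (15%) lay below. Of the 1370 lower genes 1164 were below the heterozygous range in replicate 1 too, 159 were above it and 47 within it. The 74 higher genes were above it in 11 cases, below it in 56 and within it in 7. Most of these differences were small: 4 of the lower genes and 1 of the higher had a log2 difference of 1 or more, and 228 and 8 had 0.5 or more.

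The direction of this split depended on scaling. As deposited, the median difference over all tested genes was -0.18 without replicate 1 and -0.46 with it. Shifting each library to the same median log2 value moved the first to 0.02, and then 862 genes (9.41%) lay above and 610 (6.66%) below. After quantile normalization the counts were 786 (8.58%) and 731 (7.98%). Scaling to the reads of nuclear protein-coding genes gave 650 (7.1%) and 813 (8.88%), and scaling to the sum over non-mitochondrial genes gave 929 (10.1%) and 316 (3.45%). The surplus of lower genes as deposited is thus not a feature of every scaling. Counts under the other 4 scalings are given for gene lists in the order quantile normalization, median scaling, non-mitochondrial sum and nuclear coding reads. In that order 8.58%, 9.41%, 10.1% and 7.1% of all genes lay above and 7.98%, 6.66%, 3.45% and 8.88% below.

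**Figure D1:**
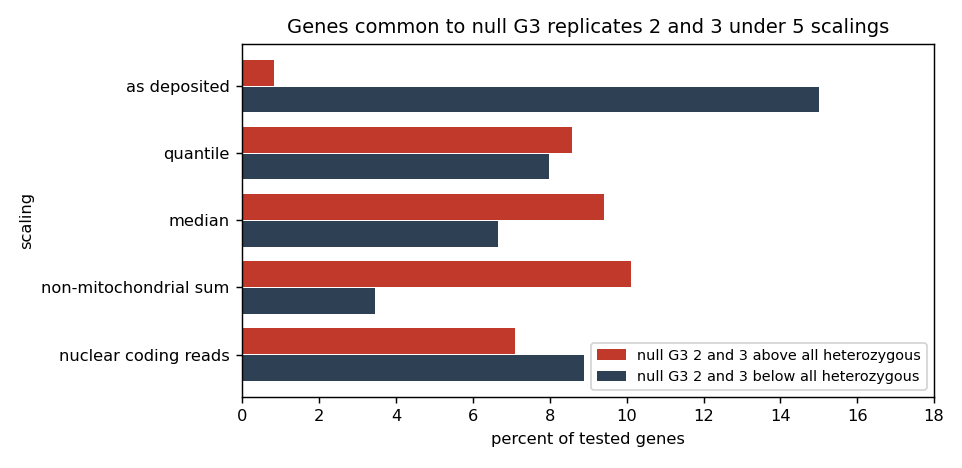
Percent of the 9156 tested genes (x axis) that lay above (red) or below (dark) all 3 heterozygous sorted libraries in both null G3 replicates 2 and 3, under 5 scalings (y axis). As deposited 15% lay below and 0.808% above, while under the other 4 scalings both shares lay between 3.45% and 10.1%.

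Among the gene lists with at least 10 tested genes, the goblet cell list had the lowest median without replicate 1. Of 28 genes on the list 26 were tested, and all 26 had a negative difference without replicate 1, with a median of -0.61 against -0.18 for all tested genes. Negative differences throughout were not particular to this list. All 16 tested genes were negative in each of the inflammasome, antigen presentation and epithelial identity lists. The Lgr5 stem cell list had 16 of 22 negative and the enteroendocrine list 6 of 11. In both null G3 replicates 2 and 3, 17 of the 26 goblet cell genes lay below every heterozygous library, where 15% of all genes did. This held for 12 under median scaling and quantile normalization, for 11 after scaling to nuclear coding reads and for 6 after scaling to the non-mitochondrial sum, and none lay above under any of them. Of all genes 6.66%, 7.98%, 8.88% and 3.45% lay below in that order, and 7.1% to 10.1% lay above. An unadjusted p under 0.05 was reached by 10 of the 26, against 2.68% of all genes, and no gene passed the adjusted threshold. With all 6 libraries the median was -1.30 against -0.46 for all genes, 9 members had an unadjusted p under 0.05, and 15 of the 26 lay below all heterozygous libraries in all 3 null libraries (12.6% of all genes). By library, the list's median deviation from the heterozygous mean was -2.59, -0.84 and -0.34 in null G3 replicates 1 to 3, where that of all genes was -1.03, -0.36 and -0.01. After scaling to nuclear coding reads it was -2.16, -0.45 and -0.30 against -0.59, -0.06 and 0.02, so replicates 2 and 3 then lay close to each other. In bulk RNA, fewer goblet cells and less of their RNA per cell cannot be told apart.

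Retnlb (chr16:48816856-48818892, + strand, mm10), an antibacterial protein of the resistin family, was at 225, 220.0 and 354 RPKM in heterozygous replicates 1 to 3 and at 91.5 and 147 RPKM in null G3 replicates 2 and 3. Both values lay below the heterozygous range, at 44.8% of the heterozygous mean on average, and replicate 1 was at 3.28 RPKM. Its log2 difference was -1.15 ± 0.34 (SE) without replicate 1 and -2.75 ± 1.13 with it, with unadjusted limma p of 0.0063 and 0.037. Tff3, a trefoil peptide of the mucus, was at 64.6, 49.7 and 51.3 RPKM against 18.5 and 44.2 RPKM, and at 10.3 RPKM in replicate 1 (-0.91 ± 0.35 without it, -1.38 ± 0.55 with it). Guca2a, which encodes the peptide guanylin, was at 76.2, 69.1 and 55.7 RPKM against 25 and 52.1 RPKM, with replicate 1 at 12.7 RPKM (-0.86 ± 0.33 without it, -1.34 ± 0.54 with it). In each of these genes null G3 replicate 2 stood further from the heterozygous libraries than replicate 3 did, and replicate 1 furthest.

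Muc2, the main gel-forming mucin, did not separate the groups once replicate 1 was left out. It was at 800.3, 593 and 1212 RPKM in the heterozygous libraries and 648 and 658 RPKM in null G3 replicates 2 and 3, which overlapped, and at 27.5 RPKM in replicate 1 (-0.35 ± 0.37 and -1.86 ± 1.09 without and with it). The table lists 3 gene IDs under this symbol, so reads may be split between them. Klk1, a kallikrein protease, was at 181, 125 and 161 RPKM against 94.6 and 124 RPKM, below but close, with replicate 1 at 4.18 RPKM (-0.51 ± 0.29 and -1.97 ± 1.05). Zg16, a lectin of the mucus, overlapped with 89.5, 18.4 and 56.6 against 19.5 and 26.2 RPKM, and was at 14.3 RPKM in replicate 1 (-0.98 ± 0.52 and -1.19 ± 0.60).

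Agr2 (chr12:35992907-36004087, + strand), a disulfide isomerase needed to make mucin, was at 510.1, 472 and 548 RPKM against 274 and 389 RPKM, and at 10.7 RPKM in replicate 1. The difference was -0.64 ± 0.31 without replicate 1 (unadjusted limma p 0.064) and -2.24 ± 1.13 with it. Ern2, the IRE1 beta stress sensor of mucus-making cells, was at 17.7, 20.02 and 18.9 RPKM against 6.41 and 13.1 RPKM and at 0.428 RPKM in replicate 1, with differences of -0.96 ± 0.28 (unadjusted limma p 0.0068) and -1.90 ± 0.73. Creb3l1, a membrane-bound transcription factor of secretory cells, had 3 heterozygous values within 143, 147 and 149 RPKM, and null G3 replicates 2 and 3 at 104 and 122 RPKM lay below them. Its difference was -0.38 ± 0.26 without replicate 1, or -0.17 under median scaling, and -2.07 ± 1.18 with that library, which was at 2.35 RPKM.

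Among regulators of the lineage, Spdef, the ETS factor for goblet cell maturation, was at 8.34, 10.1 and 10.04 RPKM in the heterozygous libraries and 4.11 and 7.29 RPKM in null G3 replicates 2 and 3. The groups did not overlap, and the difference was -0.69 ± 0.25 without replicate 1, which was at 0.146 RPKM, and -1.52 ± 0.65 with it. Klf4, a zinc finger factor of differentiating goblet and surface cells, was at 25.3, 22.9 and 16.5 RPKM against 10.6 and 11.1 RPKM, and here replicate 1, at 17 RPKM, fell inside the heterozygous range (-0.90 ± 0.25 and -0.70 ± 0.40 without and with it). Atoh1, which commits cells to the secretory fate, overlapped with 13.3, 10.6 and 15.4 RPKM against 12.1 and 11.6 RPKM, and was at 0.339 RPKM in replicate 1 (-0.12 ± 0.23 and -1.21 ± 0.79). Of 15 tested genes of Notch signalling and secretory fate, 1 lay below and none above as deposited, where 15% and 0.808% of all genes did. Under the other 4 scalings 6, 6, 3 and 5 lay above, against 8.58%, 9.41%, 10.1% and 7.1% of all genes. Under each of them 1 lay below, against 3.45% to 8.88% of all genes. The median was -0.06 without replicate 1, turning to 0.08 to 0.16 under the other 4 scalings, and -0.58 with it.

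St6galnac6, a sialyltransferase, was at 13.4, 12.5 and 11.4 RPKM against 4.52 and 7.36 RPKM, and at 0.162 RPKM in replicate 1, with differences of -0.98 ± 0.24 without it (unadjusted limma p 0.0021) and -1.83 ± 0.65 with it. St3gal4, another sialyltransferase, was at 4.15, 4.47 and 3.93 RPKM against 1.61 and 2.23 RPKM, but at 67.9 RPKM in replicate 1, so its difference was -0.83 ± 0.20 without that library and 0.69 ± 1.05 with it. Slc35a1, which carries the activated sialic acid into the Golgi, was at 56.3, 53 and 53.8 RPKM against 25.3 and 49.1 RPKM, and at 1.77 RPKM in replicate 1 (-0.61 ± 0.30 and -1.84 ± 0.91). In each of these genes both null G3 replicates 2 and 3 lay below the heterozygous range. Tpsg1, a tryptase on the goblet cell list, was at 2.82, 3.47 and 2.57 RPKM against 1.08 and 1.7 RPKM and at 0.0415 RPKM in replicate 1 (-0.73 ± 0.21 and -1.13 ± 0.37).

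**Figure D2:**
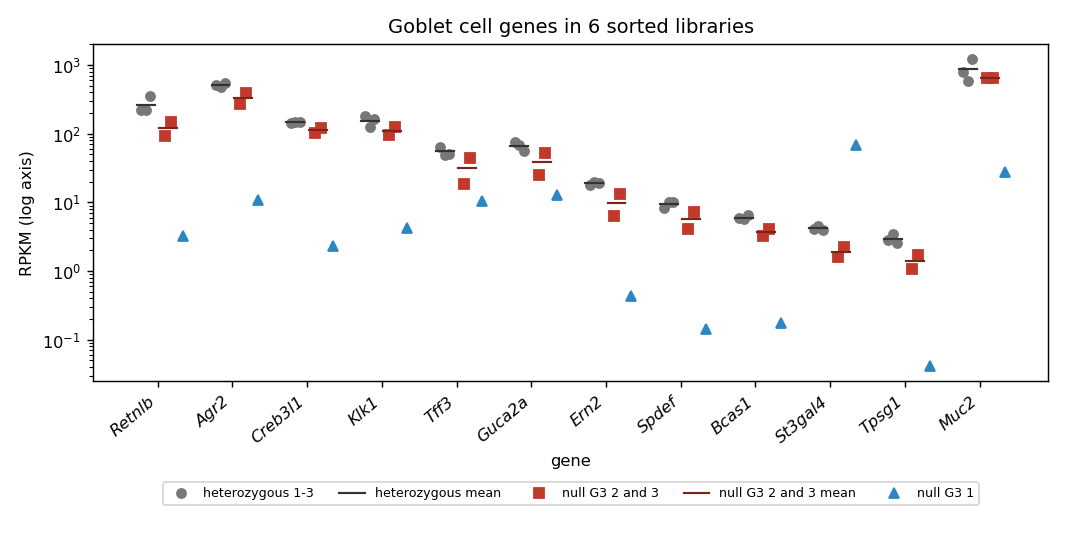
RPKM on a log axis (y) of 12 goblet cell genes (x) in the 3 heterozygous sorted libraries (grey circles), null G3 replicates 2 and 3 (red squares) and null G3 replicate 1 (blue triangle), with group means as lines. In every gene but Muc2 both red squares lie below all grey circles, and St3gal4, at 67.9 RPKM, is the only one of the 12 with replicate 1 above them. Over the whole list 17 of 26 tested genes lay below in this way as deposited, a smaller share than among the genes drawn. Klk1 no longer did under median scaling, nor did Tff3, Agr2, Creb3l1, Klk1 and Bcas1 under the non-mitochondrial sum.

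Promoters of 2 goblet cell genes are shown because Spdef is the lineage factor of the group and Agr2 one of its most abundant members. The 250 bases before the start of each gene are from RefSeq on GRCm38, written 5′ to 3′ on the gene's strand. Capitals mark CACCC, the core bound by Krüppel-like factors such as Klf4, and TTTATG, a form of the site of the intestinal Cdx factors, on either strand.
Agr2 promoter, chr12:35992675-35992924, + strand: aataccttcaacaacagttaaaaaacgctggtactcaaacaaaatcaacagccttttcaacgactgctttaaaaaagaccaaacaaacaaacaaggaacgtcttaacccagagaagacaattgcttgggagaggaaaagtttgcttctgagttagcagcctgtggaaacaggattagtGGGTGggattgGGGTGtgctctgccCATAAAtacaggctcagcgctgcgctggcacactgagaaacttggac
Spdef promoter, chr17:27728952-27729201, - strand: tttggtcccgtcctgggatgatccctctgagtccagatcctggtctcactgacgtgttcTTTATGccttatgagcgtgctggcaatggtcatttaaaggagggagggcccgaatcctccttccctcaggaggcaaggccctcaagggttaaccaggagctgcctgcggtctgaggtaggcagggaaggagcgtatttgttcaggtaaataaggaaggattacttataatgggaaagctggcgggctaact
Agr2 holds 2 CACCC and 1 TTTATG, with none overlapping, and Spdef holds 1 TTTATG and no CACCC in this window. Among 13 goblet cell genes with an entry, taking the first start of each, 6 (46.2%) held CACCC and 3 (23.1%) held TTTATG. Of all 32851 promoter windows of this length 52.0% held CACCC and 10.8% held TTTATG. Another Cdx-type form that was searched, TTTATT, was held by 1 of the 13 (7.69%) and by 18.1% of all windows. These matches describe letters only.

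The unfolded protein response is used by secretory cells to keep their protein folding capacity. Of its 17 tested genes 16 had a negative difference without replicate 1, as was common among the lists. Their median was -0.33 against -0.18 for all genes. The list's median turned to 0.02 under the non-mitochondrial sum, and with replicate 1 it was -0.55 against -0.46 for all genes. In both null G3 replicates 2 and 3, 6 lay below all heterozygous libraries (15% of all genes did). These were Xbp1, Atf4, Atf6, Ern1, Ern2 and Edem1. Under the other 4 scalings 4, 4, 3 and 4 of the 17 lay below, against 7.98%, 6.66%, 3.45% and 8.88% of all genes. Above lay 1, 1, 0 and 0, against 8.58%, 9.41%, 10.1% and 7.1%. Atf4, a transcription factor of the stress response, was at 18, 19.6 and 14.3 RPKM against 8.17 and 14.2 RPKM and at 7.86 RPKM in replicate 1 (-0.62 ± 0.27 and -0.76 ± 0.40). The list differed between libraries: its median deviation from the heterozygous mean was -0.58 in null G3 replicate 2 and 0.01 in replicate 3, where that of all genes was -0.36 and -0.01.

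As in several other lists given above, all 20 tested genes of cholesterol synthesis had a negative difference without replicate 1. Their median was -0.43 against -0.18 for all genes. By library the list's median deviation from the heterozygous mean was -0.50 in replicate 2 and -0.38 in replicate 3, against -0.36 and -0.01 for all genes. After scaling to nuclear coding reads it was -0.12 and -0.34 against -0.06 and 0.02, so replicate 2 then lay near all genes and replicate 3 below them. As deposited 7 of the 20 lay below every heterozygous library in both, against 15% of all genes, among them Hmgcs1, Idi1, Fdps, Fdft1, Sqle and Sc5d. The count was 4 under quantile normalization and nuclear coding scaling, 3 under the non-mitochondrial sum and 2 under median scaling. Of all genes 7.98%, 8.88%, 3.45% and 6.66% did so, in that order. With all 6 libraries the median was -0.94 against -0.46 for all genes. In all 3 null libraries 6 of the 20 lay below, where 12.6% of all genes did. No gene of the list passed the adjusted threshold in either comparison. An unadjusted limma p under 0.05 was reached by 3 and 2 without and with replicate 1, against 2.68% and 1.64% of all genes.

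The genes follow the pathway from acetyl-CoA units to sterol. Hmgcs1, the synthase at its entry, was at 22.9, 22.9 and 17.1 RPKM against 16.7 and 15.7 RPKM, and at 3.91 RPKM in replicate 1 (-0.34 ± 0.23 without it, -0.94 ± 0.54 with it). Both null values lay below the heterozygous range, by little in the case of heterozygous replicate 3. Mvd, which makes isopentenyl diphosphate, was at 5.78, 8.35 and 3.53 RPKM against 1.45 and 3.62 RPKM, with replicate 1 at 0.27 RPKM. It had the smallest unadjusted limma p of the list, 0.017, with differences of -0.97 ± 0.34 without replicate 1 and -1.44 ± 0.50 with it, but null G3 replicate 3 overlapped heterozygous replicate 3. Sqle, the squalene epoxidase, was at 10.8, 12.5 and 9.58 RPKM against 7.95 and 6.9 RPKM, and at 1.06 RPKM in replicate 1 (-0.50 ± 0.22 and -1.18 ± 0.55). Here too heterozygous replicate 3 was the lowest of its group, and both null values lay under it. Sc5d, a late desaturase, was at 5.23, 5.2 and 3.85 RPKM against 3.44 and 2.94 RPKM, and was the only gene of the list above all heterozygous libraries in replicate 1, at 6.16 RPKM (-0.45 ± 0.21 without it, -0.19 ± 0.36 with it, the latter turning to 0.16 to 0.33 under the other 4 scalings).

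**Figure D3:**
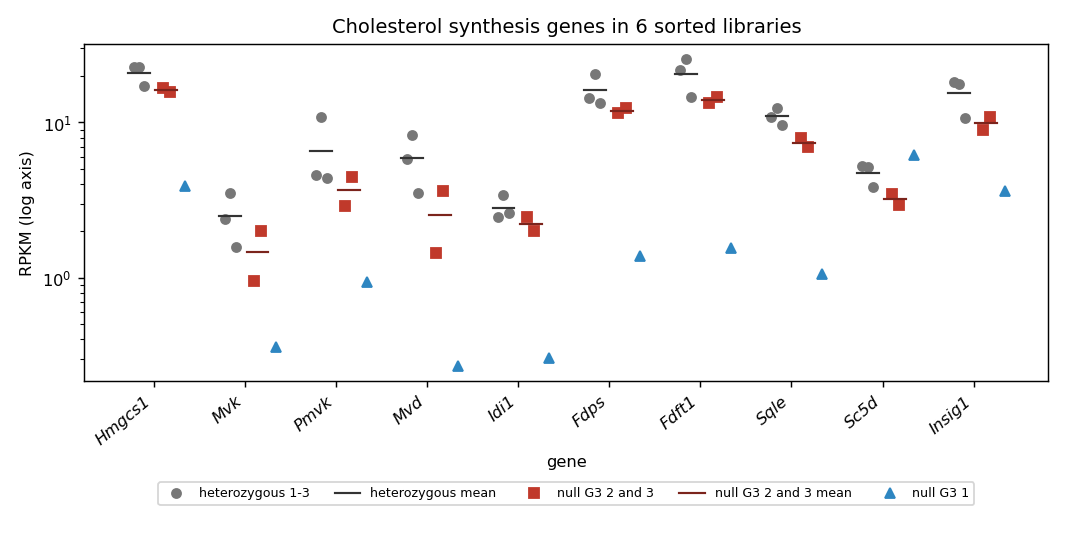
RPKM on a log axis (y) of 10 genes of cholesterol synthesis and its control (x), with heterozygous sorted libraries as grey circles, null G3 replicates 2 and 3 as red squares, null G3 replicate 1 as a blue triangle, and group means as lines. The lowest heterozygous value is often replicate 3 and comes close to the null G3 values, as in Fdft1 at 14.7 against 14.6 RPKM.

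Promoters of 2 genes of the pathway are shown because its members are known to share control by sterol-regulated factors together with CCAAT-binding factors. The 250 bases before each start are from RefSeq on GRCm38, 5′ to 3′ on the gene's strand, and capitals mark TCACNCCAC, a sterol regulatory element, and CCAAT, on either strand.
Hmgcs1 promoter, chr13:119690101-119690350, + strand: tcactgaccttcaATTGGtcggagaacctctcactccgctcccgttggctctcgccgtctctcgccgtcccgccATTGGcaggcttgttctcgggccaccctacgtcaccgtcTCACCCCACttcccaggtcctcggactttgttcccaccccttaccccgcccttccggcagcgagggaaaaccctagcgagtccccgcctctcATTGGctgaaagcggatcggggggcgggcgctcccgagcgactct
Mvd promoter, chr8:122443423-122443672, - strand: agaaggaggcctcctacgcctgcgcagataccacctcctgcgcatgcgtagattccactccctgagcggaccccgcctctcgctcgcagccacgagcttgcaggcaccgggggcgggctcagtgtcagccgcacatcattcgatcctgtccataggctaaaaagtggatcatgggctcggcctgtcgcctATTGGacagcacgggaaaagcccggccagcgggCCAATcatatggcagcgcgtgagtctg
Hmgcs1 holds 1 TCACNCCAC and 3 CCAAT, and Mvd holds 2 CCAAT, with no overlap between matches. Of 12 genes of the list with an entry, taking the first start of each, 11 (91.7%) held CCAAT and 1 (8.33%) held TCACNCCAC. Among all 32851 windows 33.8% and 1.05% did. A match is a description of the letters and not a measured binding site.

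Where genes of stem cells, dividing cells and ribosomes lay against the heterozygous range depended on scaling. Of 22 tested genes of the Lgr5 stem cell list 2 lay below and none above the heterozygous range as deposited (15% and 0.808% of all genes did), with a median of -0.07 against -0.18 for all genes. Under the other 4 scalings 8, 7, 3 and 9 lay above and none below, where 8.58%, 9.41%, 10.1% and 7.1% of all genes lay above. Lgr5 itself had a difference of 0.03 ± 0.21 without replicate 1 and -0.71 ± 0.57 with it. Ascl2, a stem cell transcription factor, was at 7.71, 5.07 and 8.65 RPKM against 7.77 and 12.8 RPKM, which overlapped, and at 0.263 RPKM in replicate 1 (0.46 ± 0.28 and -0.58 ± 0.77).

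In the mitosis list 2 of 25 genes lay below and none above as deposited, with a median of -0.10, and under the other 4 scalings 5, 5, 8 and 3 lay above and 1, 1, 0 and 1 below. In the DNA replication list none of 29 lay outside as deposited, with a median of -0.15, and 5, 5, 12 and 3 lay above under the other scalings. Of all genes 15% lay below as deposited, and 8.58%, 9.41%, 10.1% and 7.1% lay above under the others. Mki67 had a difference of -0.09 ± 0.25 without replicate 1, turning to 0.11 to 0.28 under the other 4 scalings, and -1.25 ± 0.86 with it. Ribosomal protein genes had a median of -0.15 over 36 genes, with none outside as deposited and 2, 3, 20 and 2 above under the other 4 scalings. The 20 of 36 under the non-mitochondrial sum stand against 10.1% of all genes. The sign of the medians of these 4 lists turned positive, at 0.05 to 0.25, under each of the other 4 scalings. With replicate 1 the 4 medians were -0.85, -0.92, -0.75 and -1.01, and they stayed negative under every scaling, at -0.25 to -0.67.

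**Figure D4:**
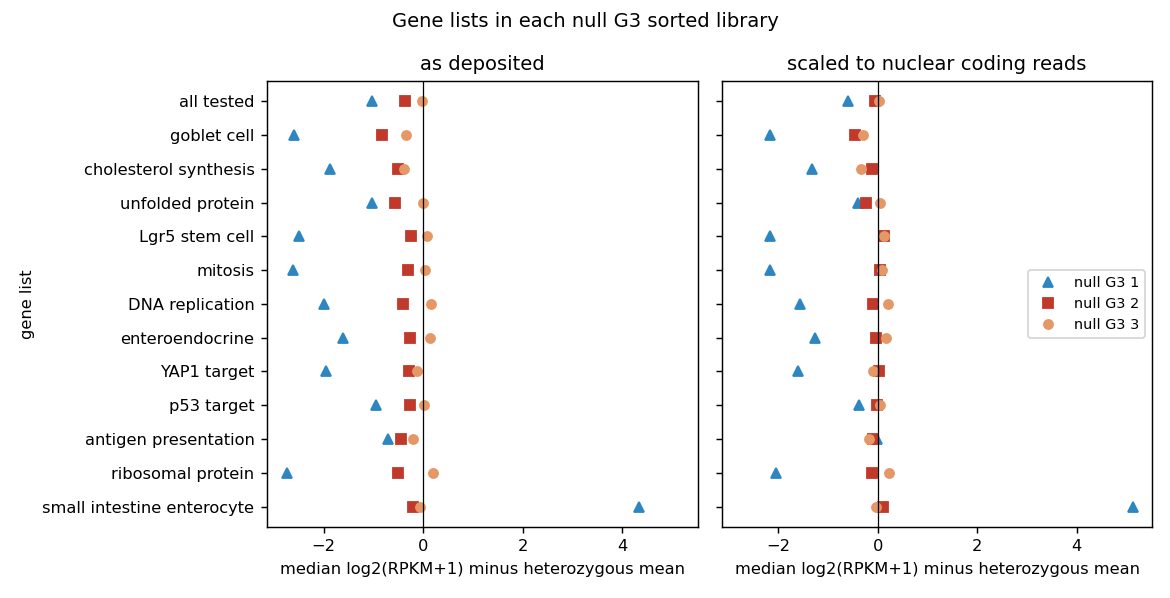
Median over each gene list (y axis) of the log2(RPKM + 1) difference of each null G3 sorted library from the heterozygous mean (x axis), as deposited (left) and after scaling to nuclear coding reads (right). Goblet cell genes sit at -0.84 and -0.34 in replicates 2 and 3 as deposited, while replicate 1 (triangles) lies far from both in most lists and at 4.34 for small intestinal enterocyte genes.

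Genes at higher levels in null G3 were few as deposited. Pyy, which encodes the gut hormone peptide YY, was at 4.75, 4.91 and 4.2 RPKM against 6.57 and 7.69 RPKM, above every heterozygous library (0.53 ± 0.20, unadjusted limma p 0.025), but at 0.121 RPKM in replicate 1 (-0.42 ± 0.69 with it). Gcg, the proglucagon gene of the same L cells, was at 54.1, 40.8 and 35.6 RPKM against 52.2 and 88.6 RPKM, so only replicate 3 exceeded all heterozygous libraries (0.66 ± 0.30 and -0.88 ± 1.09). Of 11 tested enteroendocrine genes Pyy alone lay above as deposited (0.808% of all genes did), and 2 did under each other scaling (7.1% to 10.1%). The list's median was -0.06 without replicate 1, turning to 0.03 to 0.15 under the other scalings, and -0.52 with it. Cxcl10, a chemokine induced by interferon, was at 0.452, 1.03 and 0.591 RPKM against 2.76 and 1.24 RPKM, near the test minimum, and at 0.442 RPKM in replicate 1 (0.79 ± 0.27 and 0.46 ± 0.35). Pcdh17, a protocadherin, was at 3.71, 1.23 and 2.03 RPKM against 4.11 and 4.93 RPKM and at 0.0228 RPKM in replicate 1 (0.80 ± 0.29 and -0.01 ± 0.63). Mt2, a metallothionein, was at 44.6, 38.3 and 30.7 RPKM against 54.2 and 46.6 RPKM, and at 1.33 RPKM in replicate 1 (0.42 ± 0.26 and -1.07 ± 1.05).

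Of the 10 genes above all heterozygous libraries in all 3 null G3 libraries (0.114% of 8734), 8 carry gene names covered by the naming rule. Sult1d1, a sulfotransferase, was at 13.4, 9.65 and 9.4 RPKM in the heterozygous libraries and 24.5, 15.1 and 15.2 RPKM in null G3 replicates 1 to 3 (0.47 ± 0.23 without replicate 1, 0.69 ± 0.40 with it). Reg1, a lectin of the regenerating family, was at 2.75, 2.43 and 2.78 RPKM against 3.18 and 3.14 RPKM, and at 192 RPKM in replicate 1, which carries the difference of 2.03 ± 1.25 (0.19 ± 0.19 without it). The mitochondrially encoded mt-Co3, a subunit of cytochrome c oxidase, was at 16.1, 16.8 and 15.5 RPKM against 33.1, 24.5 and 17.7 RPKM. Among the null G3 libraries it followed the order of their mitochondrial ribosomal RNA shares. Among heterozygous replicates 1 to 3 it ran in the opposite order to their shares of 32.1%, 31.7% and 40.1%. The others were Gprin3, Isoc1, Far2, Mtfp1 and Bmp2k, with differences of 0.12 to 0.30 without replicate 1 and 0.13 to 0.52 with it. Each scaling other than as deposited gave more genes of this kind, with 380 (4.35%) under median scaling, 272 (3.11%) under quantile normalization, 171 (1.96%) under the non-mitochondrial sum and 117 (1.34%) under nuclear coding reads.

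Below all heterozygous libraries in all 3 null G3 libraries were 1098 genes (12.6%). Their number was 209 (2.39%) under median scaling, 260 (2.98%) under quantile normalization, 163 (1.87%) under the non-mitochondrial sum and 478 (5.47%) under nuclear coding reads. The 12 lowest by the 6-library estimate were Retnlb, Agr2, Creb3l1, Klk1, Ern2, Slc35a1 and St6galnac6, described above, with Ly6a, Selm, S100a6, Cldn2 and Atp2a3. Cldn2, a pore-forming claudin of crypt cells, was at 156, 153 and 133 RPKM against 114 and 120.2 RPKM, and at 5.82 RPKM in replicate 1 (-0.32 ± 0.26 and -1.70 ± 0.98, with the first turning to 0.05 under the non-mitochondrial sum). Selm, a selenoprotein of the endoplasmic reticulum, was at 17.1, 21.4 and 14.2 RPKM against 6.36 and 12.9 RPKM, and at 0.291 RPKM in replicate 1 (-0.86 ± 0.30 and -1.85 ± 0.76). Atp2a3, a calcium pump of the same organelle, was at 23.7, 19.2 and 20.7 RPKM against 10.9 and 15.1 RPKM, and at 0.706 RPKM in replicate 1 (-0.68 ± 0.24 and -1.68 ± 0.75). Null G3 replicate 2 was lower than replicate 3 in each of these genes. S100a6, a calcium-binding protein, was at 55.3, 49.6 and 44.2 RPKM against 30.1 and 40.1 RPKM, and at 1.62 RPKM in replicate 1 (-0.50 ± 0.25 and -1.75 ± 0.91). In all 4 genes replicate 1 was the lowest library, and without it the difference was -0.32 to -0.86.

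YAP1 is named in the series title. Yap1, the transcriptional coactivator of the Hippo pathway, was at 2.54, 2.86 and 3.52 RPKM against 2.37 and 2.93 RPKM, which overlapped, and at 0.937 RPKM in replicate 1 (-0.12 ± 0.21 without it, which turned to 0.04 to 0.15 under the other 4 scalings, and -0.42 ± 0.35 with it). Of 10 tested YAP1 targets none lay above and 2 lay below as deposited, Ly6a and Tead1, where 0.808% and 15% of all genes did. Under the other 4 scalings none lay above and 1, 1, 0 and 1 lay below. Of all genes 7.1% to 10.1% and 3.45% to 8.88% did so. The list had a median of -0.17 against -0.18 for all genes, which turned to 0.00 to 0.12 under the other 4 scalings, and -0.74 with replicate 1. Ly6a, the Sca-1 surface antigen, was at 76, 67.2 and 55.2 RPKM against 49.8 and 36 RPKM, below in both, and at 1.26 RPKM in replicate 1 (-0.62 ± 0.27 and -2.04 ± 1.01). Of 12 tested Hippo pathway components 4 lay below and none above as deposited, against 15% and 0.808% of all genes. Under the other 4 scalings 0, 0, 0 and 1 lay below and 0, 0, 1 and 0 above, where 3.45% to 8.88% and 7.1% to 10.1% of all genes did. The median of this list was -0.16 without replicate 1, turning to 0.02 to 0.14 under the other 4 scalings, and -0.55 with it.

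Genes of the inflammasome and of the p53 pathway mostly overlapped. Il18, an interleukin activated by caspase-1, was at 1.66, 1.12 and 1.91 RPKM against 1.14 and 0.901 RPKM, overlapping, and at 11.3 RPKM in replicate 1, so the difference was -0.33 ± 0.22 without that library and 0.53 ± 0.63 with it. Casp1, the caspase that cleaves it, was at 25.7, 30.9 and 32.1 RPKM against 25.6 and 27.9 RPKM and 19.6 RPKM in replicate 1 (-0.13 ± 0.23 and -0.28 ± 0.40, both turning positive under the other 4 scalings). Of 16 tested inflammasome genes 3 lay below as deposited (Naip1, Naip5 and Naip6, sensors of bacterial proteins) and none above, near the 15% and 0.808% of all genes. Under the other 4 scalings 1, 2, 0 and 2 lay below and 0, 0, 1 and 0 above, where 3.45% to 8.88% and 7.1% to 10.1% of all genes did. The median was -0.26 without replicate 1 and -0.28 with it, and turned to 0.07 in the first under the non-mitochondrial sum and to 0.05 to 0.22 in the second under the other 4 scalings. Naip1 was at 5.03, 4.29 and 3.69 RPKM against 2.79 and 2.77 RPKM and at 3.22 RPKM in replicate 1 (-0.49 ± 0.20 without it, unadjusted limma p 0.037, and -0.44 ± 0.31 with it).

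Trp53 was at 33.1, 30.7 and 15 RPKM against 23.4 and 33.5 RPKM, overlapping, and at 3.03 RPKM in replicate 1 (0.16 ± 0.34 and -0.78 ± 0.76). Cdkn1a, the p21 inhibitor of the cell cycle that p53 induces, was at 13.5, 11 and 6.1 RPKM against 4.82 and 8.23 RPKM, overlapping, and at 28.7 RPKM in replicate 1 (-0.55 ± 0.32 and 0.12 ± 0.61). Of 17 tested p53 targets 2 lay below and none above as deposited, near the 15% and 0.808% of all genes. Under the other 4 scalings 0, 1, 0 and 1 lay below and 2, 2, 1 and 1 above. Of all genes 3.45% to 8.88% and 7.1% to 10.1% did so. The median was -0.15 without replicate 1, or 0.01 to 0.13 under the other 4 scalings, and -0.27 with replicate 1. The interval of an estimate was wide for a group of 2 against 3: the SE for single genes above was 0.19 to 0.52 without replicate 1, and a missed threshold does not show that values were the same.

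Markers of immune, stromal, glial and red blood cells were low in all 6 libraries. Lists for T and NK cells, B and plasma cells, myeloid cells and fibroblasts or muscle each had 2 tested genes without replicate 1, and those for endothelial cells, glia and red blood cells had none. The summed level of 15 T and NK cell markers was 3.05 to 16.8 RPKM in the heterozygous libraries and 1.13 to 3.67 RPKM in null G3. For 14 myeloid markers it was 7.78 to 14.95 and 1.66 to 10.4 RPKM, and for 11 B and plasma cell markers 1.84 to 8.44 and 2.08 to 13.3 RPKM. Endothelial markers Cdh5, Cldn5 and Kdr were listed at 0 in all 6. Genes of differentiated epithelial cells were not low in the heterozygous libraries. The summed level of goblet cell genes was 2210.2 to 3249 RPKM in the heterozygous libraries and 422, 1605 and 2063 RPKM in null G3 replicates 1 to 3. For surface colonocyte genes it was 626 to 1235 RPKM and 2174, 738 and 724 RPKM. This list holds Fabp1, which alone was at 1056 RPKM in replicate 1. For tuft cell genes the summed level was 338 to 433 RPKM and 34.6, 320 and 309 RPKM. For enteroendocrine genes it was 96.1 to 160 RPKM and 14.9, 117 and 168 RPKM. The part of cell makeup in the goblet cell result was not tested.

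Xist, expressed from the inactive X chromosome of females, was at 25.8, 27.3 and 37.2 RPKM in the heterozygous libraries and 7.21, 0.492 and 30.6 RPKM in null G3 replicates 1 to 3. The Y-linked Ddx3y and Kdm5d were at 1.75 and 3.37 RPKM in null G3 replicate 2 and at 0.0266 RPKM or less in the other 5, so that library alone carries male transcripts. The part of sex in the differences of null G3 replicate 2 was not tested.

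The effect of the null genotype was then compared between sorted null G3 and unsorted null G4 cells, as a difference of differences. Generation and sorting change together here and cannot be told apart, and the table lists different genes for sorted and unsorted libraries. Sex changes with genotype in the unsorted libraries: both heterozygous ones expressed Y-linked genes, and the null G4 ones expressed Xist. Sex and the null genotype cannot be told apart there, and the part of sex was not tested. Mitochondrial ribosomal RNA took 12.2% and 16.7% of reads in unsorted heterozygous and 5.87% and 5.69% in unsorted null G4 libraries, and its part in these differences was not tested. With 10 libraries 71 of 11678 genes passed (0.608%; limma, adjusted p under 0.05), 12 (0.103%) with a higher and 59 (0.505%) with a lower null effect in sorted cells. Without null G3 replicate 1, 633 of 11627 passed (5.44%), 39 (0.335%) higher and 594 (5.11%) lower. The balance of higher and lower calls depended on scaling. With 10 libraries quantile normalization gave 25 genes (0.214%), 9 (0.0771%) higher and 16 (0.137%) lower, and median scaling gave 14 (0.12%), 6 (0.0514%) higher and 8 (0.0685%) lower. The non-mitochondrial sum gave 44 (0.377%), 7 (0.0599%) higher and 37 (0.317%) lower, and nuclear coding reads gave 16 (0.137%), 3 (0.0257%) higher and 13 (0.111%) lower. Without replicate 1 the counts were 89 (0.765%) under quantile normalization, 30 (0.258%) higher and 59 (0.507%) lower, and 130 (1.12%) under median scaling, 62 (0.533%) higher and 68 (0.585%) lower. They were 108 (0.929%) under the non-mitochondrial sum, 25 (0.215%) higher and 83 (0.714%) lower, and 79 (0.679%) under nuclear coding reads, 27 (0.232%) higher and 52 (0.447%) lower.

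Among the named genes that passed in both comparisons, MHC class II genes and Reg3b had the lowest values. Cd74, the invariant chain, was at 13.7 and 18.4 RPKM in unsorted heterozygous and 511 and 604 RPKM in unsorted null G4 libraries. In sorted cells it was at 500.1, 708 and 343 RPKM in the heterozygous libraries and at 283, 416 and 421 RPKM in null G3 replicates 1 to 3. The log2 null effect was 5.04 unsorted and -0.24 ± 0.36 sorted without replicate 1 (-0.43 ± 0.48 with it), and these differed by -5.29 ± 0.46 (adjusted limma p 0.00073) without replicate 1 and -5.47 ± 0.60 (adjusted limma p 0.0036) with it. H2-Aa, an alpha chain, was at 1.94 and 3.59 RPKM in unsorted heterozygous and 122 and 149.7 RPKM in unsorted null G4 libraries. Sorted, it was at 62.2, 127 and 48.3 RPKM heterozygous and 60.4, 52.3 and 66.8 RPKM null G3, which overlapped. Of 16 tested antigen presentation genes in sorted cells 1, Tap1, lay below and none above as deposited, against 15% and 0.808% of all genes. Their median of -0.34 without replicate 1 lay between -0.14 and -0.003 under the other 4 scalings, and that of -0.48 with it between -0.11 and 0.06.

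Reg3b, an antibacterial lectin, was likewise high in sorted cells of both genotypes, at 548, 978 and 541 RPKM heterozygous and 1289, 1009.5 and 271 RPKM null G3. Unsorted it was at 15.7 and 58.5 RPKM heterozygous and 1941 and 2228 RPKM null G4. Ly6a was at 13.8 and 15.6 RPKM in unsorted heterozygous and 171 and 194 RPKM in unsorted null G4 libraries, the opposite direction to the sorted values given above. The clock output genes Dbp, Tef and Per3 were at 6.18 and 4.89, 6.55 and 6.48, and 4.6 and 3.57 RPKM in unsorted heterozygous libraries and at 0.464 RPKM or less in all 6 sorted ones, so their sorted null effect rests on values near 0. Their higher difference of null effects thus reflects lower levels in unsorted null G4 than in unsorted heterozygous libraries, and not a rise in sorted cells.

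**Figure D5:**
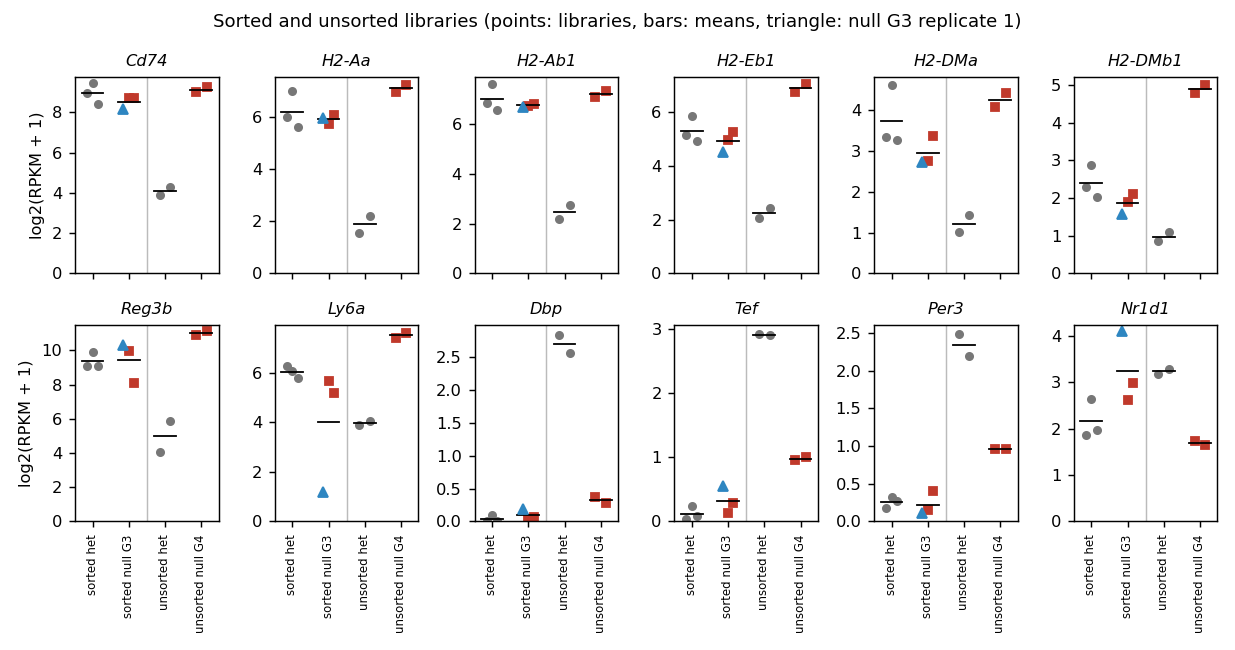
log2(RPKM + 1) (y axis) of 12 genes in sorted heterozygous, sorted null G3, unsorted heterozygous and unsorted null G4 libraries (x axis), with points for libraries, bars for means and a triangle for null G3 replicate 1. For the 6 MHC class II genes the unsorted heterozygous libraries stand low and alone, while sorted libraries of both genotypes overlap.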

How the data were processed

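RNA was extracted with an RNeasy kit and sequenced from TruSeq libraries, per the labels' protocols. The authors deposited 1 table of RPKM values (reads per kilobase of gene, scaled to library size), with no log transformation. STAR 2.3.0e and the build mm10 are listed, with no role, per the submitters' processing notes; how reads were counted, with which annotation and whether by strand, is not stated in these sources, so overlapping and antisense genes may share reads. The unit was taken as RPKM from the deposited table's name and values. Each column was matched to a sample by the column name given in the sample's description.

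Genes listed in all fitted libraries were tested with limma 3.58.1 (R 4.3.3; trended variance) on log2(RPKM + 1), so fold changes of low genes are understated. Genes needed 1 RPKM in at least 3 of 6 libraries, or 2 of 5 without null G3 replicate 1, and in at least 2 for the 10 and 9 libraries of the difference of null effects. P-values were adjusted by the Benjamini-Hochberg method over all tested genes, with a threshold of 0.05. Tables were handled in Python 3.11.15 with pandas 2.3.3. The limma step was tested on simulated data. Positions are from GENCODE M21 on GRCm38, which held 28200 of 28793 gene IDs, and promoters from RefSeq on GRCm38.p6.

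Alternatives were quantile, median and non-mitochondrial scaling, other pseudocounts and filters, sample weights, a replicate block and leaving out each library. Scaling to reads of nuclear protein-coding genes (RPKM times gene length) was added after seeing the data. Libraries of the same replicate number did not deviate together.

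The comparison, gene lists and members were chosen with earlier results of these data known. Genes were named by rule: Tert, Lgr5, Mki67, Sis, Yap1, Il18, Casp1, Cdkn1a, Trp53 and Muc2; the 10 highest and 10 lowest of passing genes whose groups did not overlap; the 12 highest and 12 lowest of genes common to null G3 replicates 2 and 3 or to all 3; the 10 highest and lowest of replicate 1; and up to 4 members of smallest p in each list. Atoh1, Bcas1, Hmgcs1 and other members listed for a count or drawn in a plot were chosen after their values were seen. Reactivated G4 libraries were not used, and some members of the cholesterol list are not reported here by name.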

Additional observations from a re-analysis of the deposited data

Results flagged for a closer look

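The effect of the null genotype differed between sorted null G3 and unsorted null G4 cells for 71 genes with all 10 libraries and for 633 without null G3 replicate 1, by limma's test of the difference at a Benjamini-Hochberg adjusted p under 0.05. Generation and sorting cannot be told apart, nor can sex and the null genotype in the unsorted libraries, and 24 of these genes are named here. Their calls depended in part on scaling, pseudocount, filter and block, each gene being looked at under each setting. With 10 libraries 34 such results lost the call, 3 gained it and 155 were unchanged. Without null G3 replicate 1, with weights included, 44 lost it and 172 were unchanged. Values are the sorted null effect minus the unsorted one on the log2(RPKM + 1) scale, first with all 10 libraries and then without null G3 replicate 1. In both, the MHC class II genes H2-Aa (-5.50 and -5.51), Cd74 (-5.47 and -5.29), H2-Eb1 (-5.06 and -4.86), H2-Ab1 (-4.99 and -4.97), H2-DMb1 (-4.47 and -4.32) and H2-DMa (-3.82 and -3.70) passed with lower values. So did Reg3b (-5.95 and -6.38), the glycoprotein Lrg1 (-4.27 and -4.13), the protease inhibitor Slpi (-3.65 and -3.49) and Ly6c1 (-3.40 and -3.30). Slpi was between 0.0118 and 1.32 RPKM in the sorted libraries and at 9.09 and 9.52 RPKM in unsorted null G4, against 0.155 and 0.163 RPKM in unsorted heterozygous libraries.

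The clock output genes Dbp (2.43 and 2.38), Tef (2.13 and 2.02) and Per3 (1.34 and 1.39) and the Y-linked Eif2s3y (3.07 and 3.30) and Ddx3y (3.00 and 3.24) passed in both with higher values. Only without null G3 replicate 1 did the Y-linked Kdm5d (3.43 and 3.78) and Uty (2.51 and 2.76) and the X-linked Xist (-6.74 and -6.83) pass. Both unsorted heterozygous libraries and sorted null G3 replicate 2 expressed the Y-linked genes, while the other sorted libraries and unsorted null G4 expressed Xist.

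Also passing only without replicate 1, Ly6a (-5.59 and -4.17) and Reg3g (-3.67 and -4.12) were lower and the ganglioside synthase St3gal5 (2.26 and 2.64), Fabp1 (4.94 and 2.37), Nr1d1 (2.62 and 2.19) and the lipase Pnliprp2 (2.88 and 2.03) higher. Fabp1 was at 6.92 and 19.3 RPKM in unsorted heterozygous and 1.06 and 1.21 RPKM in unsorted null G4 libraries, and in the 5 sorted libraries without null G3 replicate 1 it was between 3.83 and 5.42 RPKM.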

How the results depend on the processing

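The count of 0 passing genes in sorted cells held under every scaling, pseudocount and filter run. Under sample weights it held without null G3 replicate 1 but not with all 6 libraries. With all 6 libraries weights gave 6302 genes, but their estimation did not converge and put a weight of 1184.45 on null G3 replicate 2. Leaving out each library gave 0 genes with all 6 and 0 to 1 without null G3 replicate 1: Xist without null G3 replicate 3, and a predicted gene without heterozygous replicate 1 or 2. Where an arm was left with 1 library, that library is assumed to vary like the others. The replicate block gave 0 genes in both, and 27 and 37 for the difference of null effects; replicate numbers did not pair the samples, with correlations of 0.053, -0.030 and -0.190. For the difference of null effects, 10 libraries gave 71 genes, and 25 under quantile normalization, 14 under median scaling, 44 under the non-mitochondrial sum, 16 under nuclear coding reads, 8 and 214 at pseudocounts of 0.1 and 5, 200 without a filter, 8986 with weights, which did not converge here either, and 24 to 628 leaving out each library. Of these, 628 was without null G3 replicate 1, 67 without null G3 replicate 3, 40 without null G3 replicate 2, and 24 to 33 without any heterozygous or null G4 library. Without null G3 replicate 1 the 633 became 89, 130, 108, 79, 156, 2270 and, with weights, 2039, and 75 to 4715 leaving out each library; 4715 was without null G3 replicate 3, 2444 without heterozygous sorted replicate 3 and 75 to 204 without any other. Genes common to null G3 replicates 2 and 3 numbered 786, 862, 929 and 650 higher and 731, 610, 316 and 813 lower under the 4 scalings. At a log2 difference of 1 or more, higher genes numbered 3, 5, 9 and 3 under them, 7 and 0 at pseudocounts of 0.1 and 5, and 8 at a difference of 0.5; lower genes numbered 1 under median scaling, 59 and 1 at these pseudocounts and 228 at 0.5. The causes were not tested.

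Signs turned, in the order quantile, median, non-mitochondrial and coding scaling, without replicate 1 for Casp1 (0.061, 0.074, 0.23, 0.083), Mki67 (0.15, 0.11, 0.28, 0.13), Sis (0.12, 0.15, 0.18, 0.084) and Yap1 (0.072, 0.086, 0.15, 0.037), and with it for Casp1 (0.095, 0.23, 0.31, 0.12), Pcdh17 (0.40, 0.49, 0.21, 0.13, and 0.084 at a pseudocount of 5) and Sc5d (0.28, 0.31, 0.33, 0.16). Under the first 2 only, Yap1 (0.059, 0.080) and Pyy (0.062, 0.084) turned with replicate 1, as did Slc30a10 under median scaling (0.058). Without replicate 1 the non-mitochondrial sum turned Cldn2 (0.054) and Muc2 (0.031), the block Lgr5 (-0.071) and Sis (0.029), and weights Trp53 (-0.054). Leaving out each library with all 6 turned Lgr5 (-1.14 to 0.034), Sis (-0.056 to 3.55), Ascl2 (-1.26 to 0.46), Cdkn1a (-0.55 to 0.63), Dpep1 (-0.89 to 1.11), Gcg (-1.83 to 0.66), Il18 (-0.33 to 1.01), Mt2 (-1.87 to 0.42), Pcdh17 (-0.47 to 0.80), Pyy (-0.95 to 0.53), St3gal4 (-0.83 to 1.53) and Trp53 (-1.39 to 0.16), and without replicate 1 Lgr5 (-0.11 to 0.17), Sis (-0.14 to 0.029) and Trp53 (-0.18 to 0.42). The goblet cell and cholesterol medians stayed negative under all 4 scalings in both comparisons.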

Other observations

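Other single genes were among the 12 lowest common to null G3 replicates 2 and 3. Fabp6, the bile acid-binding protein of the distal gut, was at 8.91, 6.3 and 6.91 RPKM in heterozygous replicates 1 to 3 and at 1.98 and 4.95 RPKM in null G3 replicates 2 and 3, with replicate 1 at 9.62 RPKM above all of them (-0.98 ± 0.30 without replicate 1, -0.54 ± 0.48 with it). Slc30a10, a manganese exporter, was at 3.65, 1.11 and 3.63 RPKM against 0.85 and 0.733 RPKM (-0.996 ± 0.33 and -0.45 ± 0.51), and Dpep1, a dipeptidase, at 6.89, 7.38 and 3.53 RPKM against 2.1 and 3.23 RPKM (-0.89 ± 0.29 and 0.37 ± 0.91). In these 3 genes replicate 1 lay above the heterozygous range, at 4.63 RPKM for Slc30a10 and 48.4 RPKM for Dpep1. P2rx4, an ATP-gated channel, was at 8.92, 8.36 and 7.51 RPKM against 3.01 and 5.36 RPKM and at 1.67 RPKM in replicate 1 (-0.87 ± 0.24 and -1.18 ± 0.40).

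Of 13 tested Hox genes, which mark position along the gut, 3 lay below the heterozygous range in both null G3 replicates 2 and 3 as deposited, where 15% of all genes did, and none above. Under the other 4 scalings 2, 2, 1 and 2 lay below, against 7.98%, 6.66%, 3.45% and 8.88% of all genes. The median of the list was -0.24 without replicate 1, turning to 0.02 under the non-mitochondrial sum, and -0.81 with it. Hoxa11 was at 1.14, 1.21 and 1.33 RPKM against 0.529 and 0.421 RPKM and was listed at 0 RPKM in replicate 1 (-0.59 ± 0.20 without it, -0.78 ± 0.24 with it). Summed over the Hox list the level was 42.3 to 47.7 RPKM in the heterozygous libraries and 0.380, 30.1 and 40.3 RPKM in null G3 replicates 1 to 3.

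Among clock genes, Nr1d1 was at 2.65, 5.18 and 2.92 RPKM in the heterozygous libraries and at 16.2, 5.16 and 6.91 RPKM in null G3 replicates 1 to 3 (0.65 ± 0.26 without replicate 1, 1.08 ± 0.46 with it), and replicate 2 overlapped heterozygous replicate 2. Nr1d2, its paralog, was at 1.08, 1.71 and 1.67 RPKM against 2.25 and 2.58 RPKM and at 1.23 RPKM in replicate 1 (0.47 ± 0.21 and 0.26 ± 0.30). Arntl, which both repress, was at 3.07, 1.78 and 2.23 RPKM against 1.41 and 1.56 RPKM and at 0.57 RPKM in replicate 1, below as deposited (-0.42 ± 0.22 and -0.64 ± 0.31). Of 8 tested clock genes 3 lay below and 1 above as deposited, where 15% and 0.808% of all genes did. Under each of the other 4 scalings none lay below and 2 above, where 3.45% to 8.88% and 7.1% to 10.1% of all genes did. The labels used here give no time of day of collection.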
